A study of Homo sapiens with 6 samples.

Results

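The collagen chain genes encode the polypeptides that assemble into the collagens of the extracellular matrix. They were taken as every protein-coding row of the deposited gene table whose symbol reads COL, a number, A and a number, and they came to 44 of 60612 rows, each symbol with 1 row. Of these, 20 reached at least 0.5 FPKM (mapped fragments scaled to transcript length and library depth) in at least 3 of the 6 libraries and were tested as expressed, and 24 did not. The comparison was between 3 libraries given an siRNA (small interfering RNA) that targets EIF4G2, here siEIF4G2, and 3 given a control siRNA, siNC, both at 50 nM. The EIF4G2 protein belongs to the eIF4G family of translation initiation factors but does not bind the cap-binding protein eIF4E. All 6 libraries were labelled as Hep3B, a line from a human hepatocellular carcinoma. The labels name no genotype, no treatment time and no separate cultures, so the p-values below speak only of how much these libraries varied, possibly for technical reasons. The libraries were made from poly(A)-selected RNA and sequenced in paired ends, and the protocol text speaks of an adipose RNA source where every other label says liver or hepatocellular carcinoma.

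Collagens are trimers of chains in which glycine recurs at regular steps, with many prolines and hydroxyprolines between. Fibrillar collagens form the banded fibrils of connective tissue, collagen IV forms the sheet of basement membranes, and collagen VI forms beaded filaments. FACIT collagens decorate fibrils, and multiplexins sit in basement membrane zones. A chain is usually secreted only as part of a complete trimer, so the partners of each chain matter for what a cell can make. In the liver, collagens I and III are known mainly as products of activated stellate cells and fibroblasts, and hepatocytes as minor sources.

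EIF4G2 was measured first, as a check on the labels. It had 178.9, 180.8 and 201.0 CPM (counts scaled to depth as described under the processing) in siEIF4G2 libraries, against 1109.6, 918.7 and 1004 CPM in siNC libraries. The groups did not overlap, and EIF4G2 was 5.41-fold lower in siEIF4G2 cells (log2 fold change -2.44, SE 0.088, adjusted p = 0.000207 by edgeR's quasi-likelihood test with Benjamini-Hochberg adjustment, the test used throughout). EIF4G2 overlaps CTR9 in the annotation.

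Total counts per library lay between 63351653 and 72863628, and mitochondrial genes took 8.03% to 9.02% of them. Of 10 hepatocyte markers none passed the expression filter, all 10 were under 1 CPM, and 7 (ALB, GPC3, TTR, FGB, APOB, APOA1 and AFP) were at 0 counts in all 6 libraries, which goes against the liver label, and the cells are called by their siRNA below. The summed hepatocyte markers came to 0.125 to 0.365 CPM in siEIF4G2 libraries and 0.0601 to 0.186 CPM in siNC libraries. Of 9 fibroblast and stellate cell markers, 4 were tested, 4 others (PDGFRA, THY1, POSTN and DES) averaged under 1 CPM, and none was at 0 in all libraries. The sum of the 9 was 211 to 242 CPM in siEIF4G2 libraries and 165 to 189 CPM in siNC libraries. DCN and LUM made up most of that sum, and PDGFRB, by contrast, was 2.29-fold lower in siEIF4G2 cells (adjusted p = 0.00302 by edgeR). The 6 endothelial markers summed to 3.49 to 4.19 CPM in siEIF4G2 libraries and 10.3 to 11.1 CPM in siNC libraries, and CDH5 was the only one tested. The leukocyte markers summed to 19.7 to 25.3 CPM in siEIF4G2 libraries and 31.7 to 37.2 CPM in siNC libraries, mostly CD68, with PTPRC and CD3E at 0 in all libraries. The 5 epithelial markers summed to 1.99e+03 to 2.23e+03 CPM in siEIF4G2 libraries and 2.28e+03 to 2.34e+03 CPM in siNC libraries, nearly all of it KRT8 and KRT18. The part that other cell types play in the collagen values below was not tested, and in bulk libraries fewer cells of a type and less RNA per cell cannot be told apart.

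Among the 20 expressed collagen genes, 7 passed an adjusted p of 0.05 by edgeR: COL3A1 rose, and COL18A1, COL16A1, COL1A1, COL5A1, COL4A3 and COL6A1 fell in siEIF4G2 cells. Across all 13748 genes tested, 33.4% passed, 15.9% as higher and 17.6% as lower, so 7 of 20 is near the share of the whole table. The median log2 fold change was -0.20 over the 20 genes and 0.01 over all genes tested, and 13 of the 20 had a lower fitted value in siEIF4G2 cells and 7 a higher one. No collagen gene reached a 2-fold difference (3.55% of all genes tested passed the test with one), and the largest absolute log2 fold change was 0.63. The median absolute log2 fold change was 0.26 both among the collagen genes and among all genes tested. In 10 of the 20 genes the libraries of the groups did not overlap, against 50.6% of all genes tested.

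**Figure D1:**
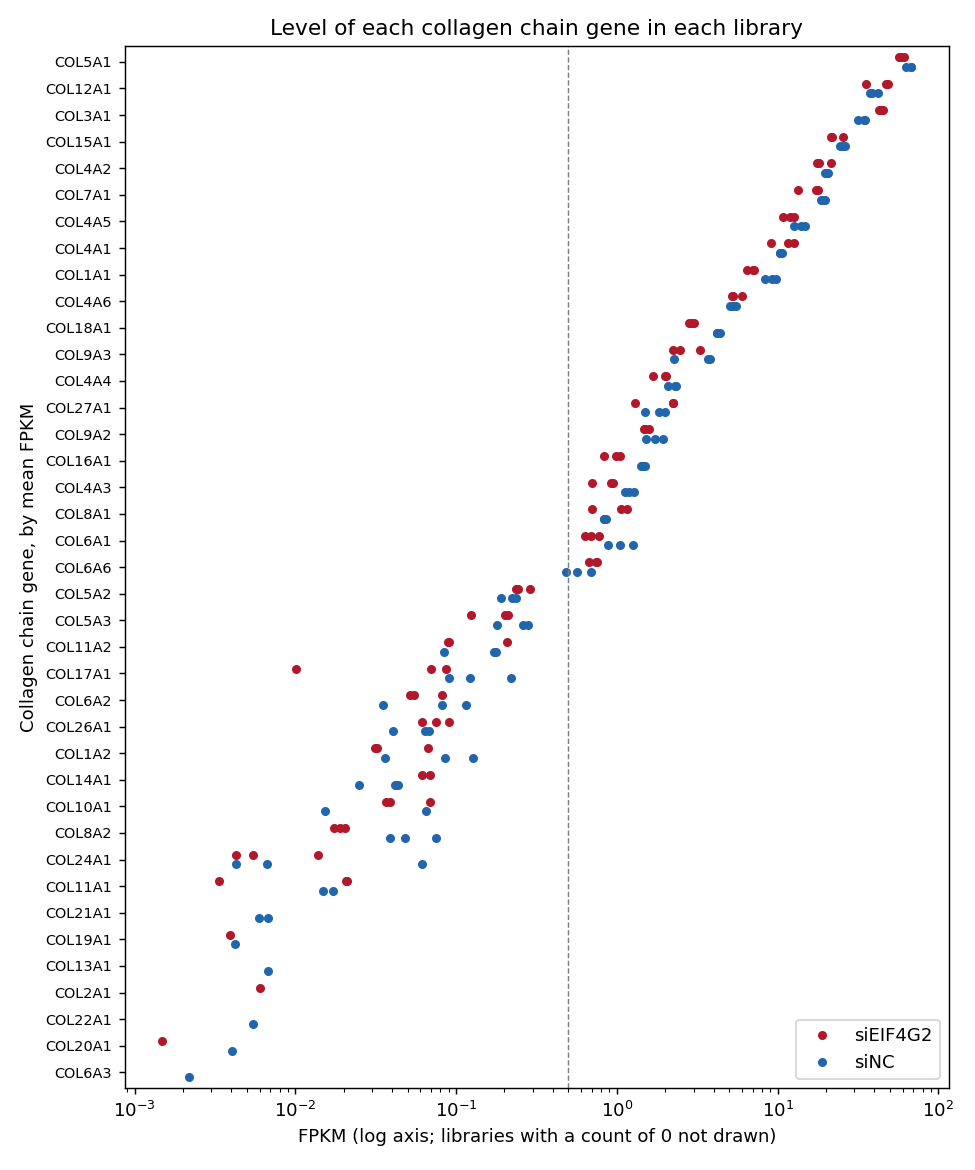
FPKM on a log axis of each collagen gene with any count, with a point for each library and siEIF4G2 above siNC in each row, libraries at 0 left out and a dashed line at 0.5 FPKM. COL5A1, COL12A1 and COL3A1 are the most abundant, and a gap separates the 20 tested genes from the others, of which COL5A2 is the highest.

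COL5A1 was the highest at a mean of 62.4 FPKM over all 6 libraries, followed by COL12A1 at 41.7 and COL3A1 at 38.9 FPKM. COL15A1 (24.2 FPKM), COL4A2 (19.6), COL7A1 (17.6), COL4A5 (12.8) and COL4A1 (10.8) came next, so 8 genes had a mean of at least 10 FPKM. Another 9 lay between 1 and 10 FPKM, from COL1A1 at 7.99 to COL4A3 at 1.03 FPKM, and 3 lay between 0.5 and 1 FPKM (COL8A1, COL6A1 and COL6A6). Summed over all 44 genes, the level was 270.2, 242.3 and 255.5 FPKM in siEIF4G2 libraries, against 261.1, 260.8 and 264.6 FPKM in siNC libraries. These sums overlapped. COL5A1, COL12A1 and COL3A1 together took 56.9%, 56.5% and 58.4% of the sum in siEIF4G2 libraries, against 53.3%, 53.1% and 53.1% in siNC libraries. The share of COL3A1 alone averaged 17.2% ± 0.5 in siEIF4G2 libraries and 12.9% ± 0.577 in siNC libraries, and that of COL5A1 averaged 23.0% ± 0.907 in siEIF4G2 libraries and 25.2% ± 1.19 in siNC libraries (SD, n = 3 each).

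Of 11 fibrillar collagen genes, 4 were expressed, and 1 rose, 2 fell and 1 did not pass the test. COL3A1 (ENSG00000168542, chromosome 2, positions 188974373 to 189012746, plus strand, GRCh38), the single chain of collagen III, had 359.5, 352.0 and 349.8 CPM in siEIF4G2 libraries, against 283.0, 260.4 and 286.6 CPM in siNC libraries. All 3 siEIF4G2 libraries lay above all 3 siNC libraries. COL3A1 averaged 353.8 ± 5.1 CPM in siEIF4G2 cells and 276.7 ± 14.2 CPM in siNC cells (SD, n = 3 each) and was 1.28-fold higher (log2 fold change 0.35, SE 0.049, adjusted p = 0.00334 by edgeR). It was the only collagen gene that rose.

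COL1A1 (ENSG00000108821, chromosome 17, 50184101 to 50201632, minus strand), the alpha 1 chain of collagen I, had 75.7, 77.2 and 68.7 CPM in siEIF4G2 libraries, against 100.7, 106.7 and 91.3 CPM in siNC libraries. The siEIF4G2 libraries were all lower. COL1A1 fell 1.35-fold, with 73.9 ± 4.52 CPM in siEIF4G2 cells and 99.6 ± 7.74 CPM in siNC cells (log2 fold change -0.43, SE 0.077, adjusted p = 0.0083 by edgeR). The usual partner of COL1A1 in collagen I is COL1A2, which was not expressed enough to be tested: it had 32, 28 and 56 counts in siEIF4G2 libraries, against 34, 112 and 81 counts in siNC libraries. On the FPKM scale COL1A2 averaged 0.0435 in siEIF4G2 cells and 0.0828 in siNC cells, beside 6.88 ± 0.366 FPKM of COL1A1 in siEIF4G2 cells and 9.10 ± 0.702 FPKM in siNC cells.

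COL5A1 (ENSG00000130635, chromosome 9, 134641803 to 134844843, plus strand), the alpha 1 chain of collagen V, which sets the size of collagen I fibrils, had 804.3, 788.1 and 750.0 CPM in siEIF4G2 libraries, against 912.5, 917.7 and 852.4 CPM in siNC libraries. The groups did not overlap, and COL5A1 fell 1.15-fold (log2 fold change -0.20, SE 0.048, adjusted p = 0.0244 by edgeR). The call did not hold without siEIF4G2 library 3 (adjusted p = 0.0674), siNC library 1 (0.0817) or siNC library 2 (0.0833). Its partner COL5A2 was not tested and averaged 0.256 ± 0.0276 FPKM in siEIF4G2 cells and 0.216 ± 0.0228 FPKM in siNC cells, beside 58.7 FPKM of COL5A1 in siEIF4G2 cells and 66.0 FPKM in siNC cells. COL5A3 had 126, 67 and 104 counts in siEIF4G2 libraries and 147, 99 and 163 counts in siNC libraries. COL27A1, a fibrillar collagen of cartilage, had 37.2, 21.9 and 37.2 CPM in siEIF4G2 libraries and 31.2, 25.6 and 33.8 CPM in siNC libraries, and the groups overlapped (log2 fold change 0.09, adjusted p = 0.794 by edgeR). The fitted direction of COL27A1 turned without any of siEIF4G2 library 1 (-0.03), siEIF4G2 library 3 (-0.03) or siNC library 2 (-0.02).

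**Figure D2:**
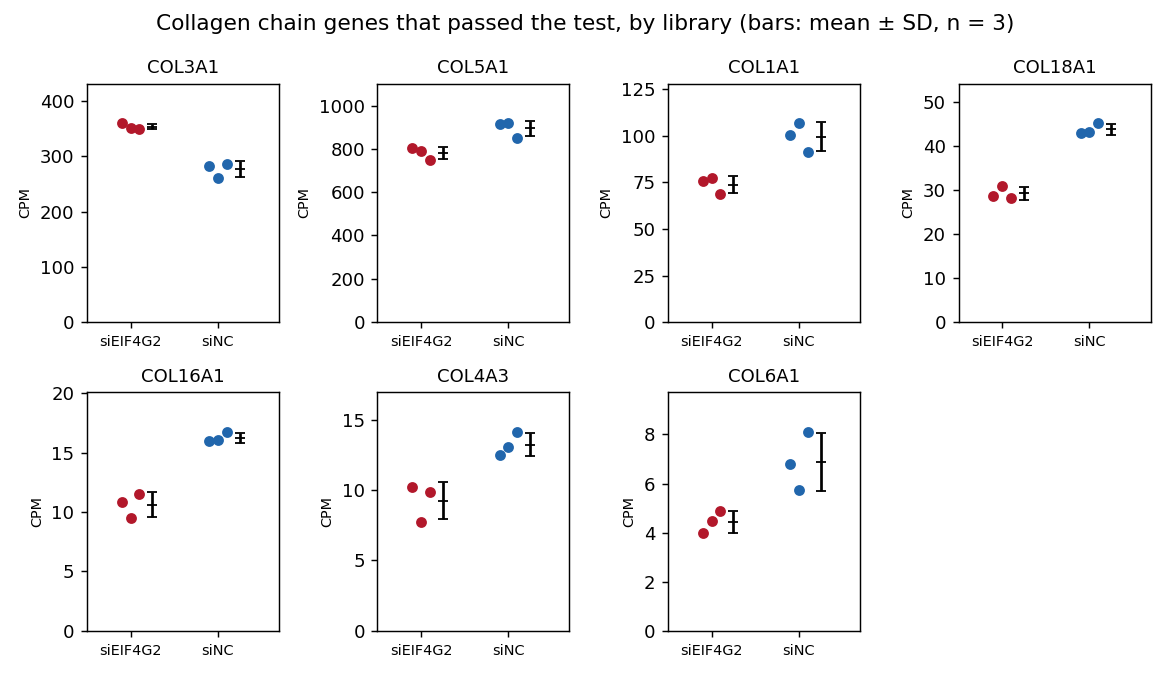
CPM in each library for the 7 collagen genes that passed the test, siEIF4G2 left of siNC, with the group mean and SD. All 3 siEIF4G2 points of COL3A1 lie above the siNC points, and in the other 6 genes they all lie below.

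Collagen IV, the sheet-forming collagen of basement membranes, had every gene expressed, as the multiplexins did. Of its 6 genes, COL4A3 fell and the other 5 did not pass the test, with a median log2 fold change of -0.18 beside 0.01 over all genes tested. The genes lie as 3 pairs that start beside each other on opposite strands: COL4A1 and COL4A2 on chromosome 13, COL4A4 and COL4A3 on chromosome 2, and COL4A6 and COL4A5 on the X chromosome. The RefSeq start sites of the pairs (GRCh38.p14) are 127 bases apart for COL4A1 and COL4A2, 419 for COL4A3 and COL4A4, and 380 for COL4A5 and COL4A6, for which a further COL4A6 start lies 1416 bases from that of COL4A5. The windows from 250 bases before to 50 bases after each start therefore overlap by 226, 82 and 121 bases, and that of the further COL4A6 start does not overlap the COL4A5 window. They are shown because each pair has starts with overlapping windows, and the values of the pair are compared below. The COL4A2 window, most of which lies within that of COL4A1, is not printed.

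The windows run 5′ to 3′ on the strand of their gene, from RefSeq, with capitals marking CCAAT or its reverse complement ATTGG and the GC box GGGCGG or its reverse complement CCGCCC. COL4A1 is at chr13:110307108-110307407 (minus strand), COL4A3 at chr2:227164374-227164673 (plus), COL4A4 at chr2:227164156-227164455 (minus), COL4A5 at chrX:108439588-108439887 (plus) and COL4A6, for its start nearer to COL4A5, at chrX:108439409-108439708 (minus).
COL4A1: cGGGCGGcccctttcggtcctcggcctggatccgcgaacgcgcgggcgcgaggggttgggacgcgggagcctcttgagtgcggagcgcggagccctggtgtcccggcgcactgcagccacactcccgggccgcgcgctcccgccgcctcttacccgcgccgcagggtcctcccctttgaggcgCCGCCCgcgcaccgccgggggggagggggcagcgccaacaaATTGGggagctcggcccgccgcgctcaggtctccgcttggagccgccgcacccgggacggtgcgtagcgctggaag
COL4A3: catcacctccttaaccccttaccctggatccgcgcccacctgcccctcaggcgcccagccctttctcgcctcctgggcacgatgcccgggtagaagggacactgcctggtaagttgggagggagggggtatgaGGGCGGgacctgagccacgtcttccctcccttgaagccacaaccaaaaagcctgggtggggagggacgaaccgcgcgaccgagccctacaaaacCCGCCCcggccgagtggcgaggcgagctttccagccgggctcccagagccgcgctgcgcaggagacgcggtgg
COL4A4: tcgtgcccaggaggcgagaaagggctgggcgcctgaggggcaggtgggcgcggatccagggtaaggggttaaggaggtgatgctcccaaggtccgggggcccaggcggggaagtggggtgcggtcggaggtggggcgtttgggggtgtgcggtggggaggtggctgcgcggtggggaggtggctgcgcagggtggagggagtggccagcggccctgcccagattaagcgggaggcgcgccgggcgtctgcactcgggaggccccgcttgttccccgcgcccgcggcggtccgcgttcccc
COL4A5: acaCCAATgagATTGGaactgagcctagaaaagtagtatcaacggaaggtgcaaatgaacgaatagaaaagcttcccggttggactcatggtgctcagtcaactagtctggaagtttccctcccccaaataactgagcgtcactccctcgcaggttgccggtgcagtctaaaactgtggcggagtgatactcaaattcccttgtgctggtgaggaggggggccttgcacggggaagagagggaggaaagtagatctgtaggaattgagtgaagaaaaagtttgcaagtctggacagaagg
COL4A6: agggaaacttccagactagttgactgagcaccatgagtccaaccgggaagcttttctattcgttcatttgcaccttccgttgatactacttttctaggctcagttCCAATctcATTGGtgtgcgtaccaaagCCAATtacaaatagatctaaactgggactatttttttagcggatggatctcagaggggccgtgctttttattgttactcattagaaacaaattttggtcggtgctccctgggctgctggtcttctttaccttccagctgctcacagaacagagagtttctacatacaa

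The COL4A1 window holds 1 CCAAT match and 2 GC boxes and is 76.7% G and C, and that of COL4A3 holds no CCAAT and 2 GC boxes. The COL4A4 window holds neither motif. The X-linked pair stands apart in base composition, at 49.3% G and C for COL4A5 with 2 CCAAT matches and 43.7% for COL4A6 with 3, and neither of these holds a GC box. The window of the further COL4A6 start, not printed, is 50% G and C and holds a GC box but no CCAAT. Of the 20 expressed collagen genes 15 had 18 windows between them, and COL1A1, COL3A1, COL6A1, COL8A1 and COL9A3 did not. CCAAT was in 4 of the 18 windows, all of them of collagen IV genes (22.2%, beside 34.6% of all 35116 windows), and GGGCGG in 15 of the 18 (83.3%, beside 45% of all), both searched on both strands with overlapping matches each counted. The median G and C content was 69.7% over the collagen windows and 58.7% over all windows. A match describes the letters in these windows only.

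COL4A3 (ENSG00000169031, 227164624 to 227314792, plus strand), which with COL4A4 and COL4A5 forms the trimer of mature kidney glomerular basement membrane, had 10.2, 7.74 and 9.84 CPM in siEIF4G2 libraries, against 12.5, 13.1 and 14.1 CPM in siNC libraries. All siEIF4G2 libraries were lower. COL4A3 fell 1.43-fold (log2 fold change -0.52, SE 0.131, adjusted p = 0.0272 by edgeR), but the call did not hold without siEIF4G2 library 3 (0.0527) or without siNC library 1 (0.0549), 2 (0.0686) or 3 (0.084). A noncoding gene on the other strand, MFF-DT, overlaps it with 4.99% of its CPM.

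COL4A4 had 24.0, 20.6 and 23.7 CPM in siEIF4G2 libraries, against 28.5, 25.4 and 27.9 CPM in siNC libraries (log2 fold change -0.26, adjusted p = 0.0667 by edgeR). COL4A5 had 177.5, 154.7 and 167.7 CPM in siEIF4G2 libraries, against 182.1, 201.1 and 213.7 CPM in siNC libraries (log2 fold change -0.26, adjusted p = 0.051). In both genes every siEIF4G2 library was below every siNC library, though neither passed the test. Without siNC library 1, COL4A5 passed (adjusted p = 0.0371), and by DESeq2 both did (0.0462 for COL4A4 and 0.0269 for COL4A5).

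COL4A1 and COL4A2 encode the chains of the common collagen IV trimer. COL4A1 had 219.9, 205.1 and 157.2 CPM in siEIF4G2 libraries and 190.3, 184.4 and 184.1 CPM in siNC libraries (log2 fold change 0.06, adjusted p = 0.748 by edgeR). COL4A2 had 411.1, 501.5 and 398.9 CPM in siEIF4G2 libraries and 472.8, 460.2 and 482.4 CPM in siNC libraries (log2 fold change -0.11, adjusted p = 0.401). The siEIF4G2 libraries spread on both sides of the siNC libraries in both genes. Library 2 of siEIF4G2 lay above all siNC libraries in both genes, and library 1 did so for COL4A1 only. Without siEIF4G2 library 2, COL4A2 passed at a log2 fold change of -0.22 (adjusted p = 0.0174), and without siEIF4G2 library 1 the value of COL4A1 turned to -0.04. The annotated intervals of the pair overlap by 1346 bases, and whether reads were counted by strand is not given in the sources used here. COL4A6, found with COL4A5 in smooth muscle and epidermal basement membranes, had 66.3, 59.3 and 57.3 CPM in siEIF4G2 libraries and 59.4, 57.0 and 61.7 CPM in siNC libraries (log2 fold change 0.04, adjusted p = 0.716). Its groups overlapped, and without siEIF4G2 library 1 the value was -0.02.

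The balance between partner chains was compared as a ratio of FPKM within each library for 6 pairs, with exact two-sided permutation tests, which for 3 against 3 libraries cannot go below p = 0.1. The ratio of COL4A1 to COL4A2 was 0.703, 0.537 and 0.518 in siEIF4G2 libraries, against 0.529, 0.527 and 0.502 in siNC libraries (exact permutation p = 0.4, 0.6 after adjustment over the 6 pairs). These overlapped, with siEIF4G2 library 1 standing above the rest. The ratio of COL4A3 to COL4A4 was 0.469, 0.415 and 0.459 in siEIF4G2 libraries, against 0.484, 0.571 and 0.560 in siNC libraries (exact permutation p = 0.1, adjusted 0.2). That of COL4A5 to COL4A6 was 2.10, 2.04 and 2.29 in siEIF4G2 libraries, against 2.40, 2.76 and 2.71 in siNC libraries (exact permutation p = 0.1, adjusted 0.2). In both of these pairs, and in COL4A3 to COL4A5, the groups did not overlap, at the smallest p the design allows. The ratio of COL4A3 to COL4A5 shares a chain with each of these pairs, so the results are not independent. How often ratios of other gene pairs were separate was not computed, and 50.6% of single tested genes were. COL4A4 to COL4A5 averaged 0.161 in siEIF4G2 libraries and 0.163 in siNC libraries, and COL9A2 to COL9A3 averaged 0.589 ± 0.13 in siEIF4G2 libraries and 0.547 ± 0.107 in siNC libraries (SD, n = 3 each). Both of the last pairs overlapped (exact permutation p = 1 and 0.7).

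**Figure D3:**
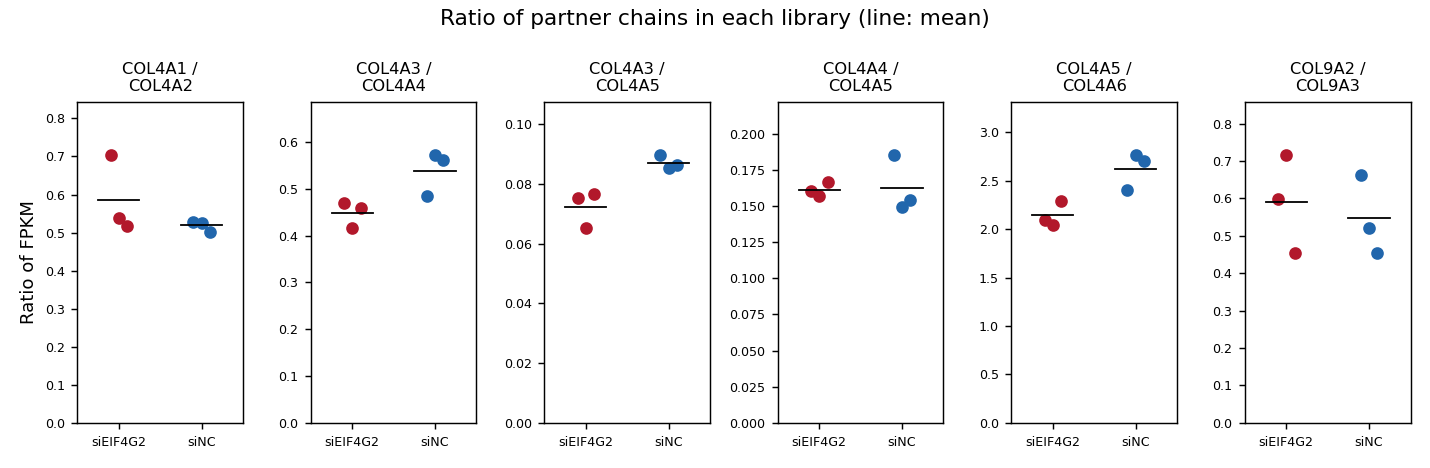
FPKM ratio of partner chains in each library for 6 pairs, each on its own axis from 0, siEIF4G2 left of siNC, with a line at the group mean. The groups are separate for COL4A3 to COL4A4, COL4A3 to COL4A5 and COL4A5 to COL4A6, and overlap for the other 3 pairs.

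Both multiplexin genes were expressed, and 1 fell. COL18A1 (ENSG00000182871, chromosome 21, 45405165 to 45513720, plus strand), the chain of collagen XVIII and source of the fragment endostatin, had 28.8, 30.9 and 28.2 CPM in siEIF4G2 libraries, against 43.0, 43.3 and 45.2 CPM in siNC libraries. Every siEIF4G2 library was well below every siNC library. COL18A1 averaged 29.3 ± 1.43 CPM in siEIF4G2 cells and 43.9 ± 1.21 CPM in siNC cells (SD, n = 3 each) and fell (log2 fold change -0.58, SE 0.060, adjusted p = 0.00136 by edgeR), the smallest p of the collagen genes. SLC19A1 overlaps it on the other strand and had 24.1 CPM in siEIF4G2 cells and 21 CPM in siNC cells, 61.7% of the CPM of COL18A1 over all libraries (log2 fold change of SLC19A1 0.20, adjusted p = 0.0896). COL15A1, the other multiplexin, had 201.0, 176.0 and 168.7 CPM in siEIF4G2 libraries and 213.1, 203.3 and 197.6 CPM in siNC libraries, with siEIF4G2 library 1 inside the siNC range (log2 fold change -0.17, adjusted p = 0.133). Without that library COL15A1 passed (adjusted p = 0.0312).

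COL18A1 has 2 windows, and the one at chr21:45404915-45405214 (plus strand, GRCh38.p14, RefSeq) is shown because COL18A1 is the collagen gene with the smallest p and the start site of this window is the start of its interval in the files. The other, at chr21:45455272-45455571, is 66.3% G and C and also holds a GC box. Which start was used was not measured here. The printed window holds 9 GC boxes, in capitals as above, and no CCAAT, and is 86.7% G and C.
COL18A1: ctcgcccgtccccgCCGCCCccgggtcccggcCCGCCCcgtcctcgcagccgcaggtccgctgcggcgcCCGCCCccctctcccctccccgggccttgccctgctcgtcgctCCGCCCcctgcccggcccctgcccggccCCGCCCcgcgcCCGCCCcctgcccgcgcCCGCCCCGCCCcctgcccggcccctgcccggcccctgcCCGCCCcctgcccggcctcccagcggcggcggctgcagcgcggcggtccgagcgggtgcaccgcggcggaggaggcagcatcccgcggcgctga

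Of 10 FACIT genes, 4 were expressed, and 1 fell. COL16A1 (ENSG00000084636, chromosome 1, 31652263 to 31704319, minus strand), the chain of collagen XVI, which associates with fibrils, had 10.8, 9.47 and 11.5 CPM in siEIF4G2 libraries, against 16.0, 16.1 and 16.7 CPM in siNC libraries. All siEIF4G2 libraries were lower, and COL16A1 fell 1.53-fold (log2 fold change -0.62, SE 0.099, adjusted p = 0.00565 by edgeR). COL12A1, the chain of collagen XII and the second most abundant collagen gene, had 699.5, 539.5 and 715.0 CPM in siEIF4G2 libraries and 573.4, 586.4 and 638.3 CPM in siNC libraries. Here siEIF4G2 library 2 was the lowest of all 6 and the other siEIF4G2 libraries the highest, and the test did not pass (log2 fold change 0.12, adjusted p = 0.465). Without that library COL12A1 passed as higher (adjusted p = 0.0351). COL9A2 and COL9A3, chains of the cartilage collagen IX, had mean levels of 1.62 and 2.96 FPKM, while the gene of their remaining partner chain, COL9A1, was at 0 counts in all 6 libraries. Their log2 fold changes were -0.20 for COL9A2 (adjusted p = 0.232) and -0.32 for COL9A3 (adjusted p = 0.339), with overlapping groups, and COL9A3 overlaps TCFL5.

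COL6A1 (ENSG00000142156, chromosome 21, 45981769 to 46005050, plus strand), the alpha 1 chain of collagen VI, had 3.99, 4.48 and 4.86 CPM in siEIF4G2 libraries, against 6.81, 5.74 and 8.09 CPM in siNC libraries. The groups did not overlap, and COL6A1 fell 1.55-fold (log2 fold change -0.63, SE 0.161, adjusted p = 0.0276 by edgeR), the largest fold among the collagen genes on low counts. Its call did not hold without siEIF4G2 library 1 (0.0838) or 2 (0.0661), or without siNC library 1 (0.0707) or 3 (0.072). Its partners COL6A2, with 26, 36 and 21 counts in siEIF4G2 libraries and 53, 16 and 38 counts in siNC libraries, and COL6A3, near 0 in all, were not tested. COL6A6 had 8.67, 8.70 and 7.74 CPM in siEIF4G2 libraries and 6.71, 8.11 and 5.65 CPM in siNC libraries, which overlapped (log2 fold change 0.29, adjusted p = 0.188).

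COL7A1, the chain of the anchoring fibrils that fasten epidermis to dermis, had 232.3, 179.6 and 226.5 CPM in siEIF4G2 libraries, against 266.2, 249.9 and 255.0 CPM in siNC libraries. Its groups did not overlap, with the siEIF4G2 libraries spread more widely, and it did not pass (log2 fold change -0.27, adjusted p = 0.088 by edgeR). COL8A1, a chain of the short network collagen VIII found under endothelium, had 12.9, 8.11 and 11.9 CPM in siEIF4G2 libraries and 9.50, 9.57 and 9.82 CPM in siNC libraries (log2 fold change 0.19, adjusted p = 0.471). The siEIF4G2 libraries lay on both sides, and without siEIF4G2 library 2 COL8A1 passed as higher (adjusted p = 0.041). That library was also the lowest of all 6 for COL7A1, COL12A1, COL27A1, COL4A3, COL4A4, COL4A5, COL16A1 and COL9A3. Of these, COL4A3 and COL16A1 had passed as lower. Both still passed without it, at log2 fold changes of -0.40 and -0.54, against -0.52 and -0.62 with it.

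**Figure D4:**
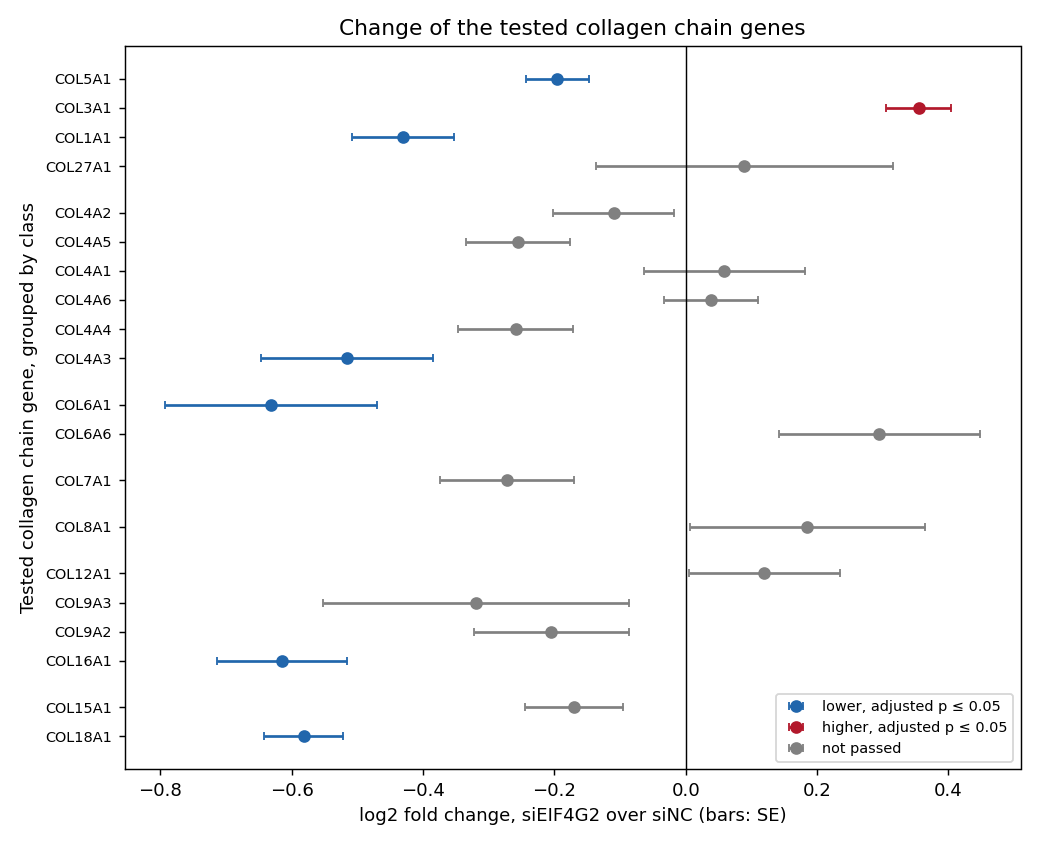
log2 fold change of siEIF4G2 over siNC with its SE for the 20 expressed collagen genes, grouped by class, with genes that passed the test in red (higher) or blue (lower). COL3A1 is the only red gene, and 6 blue genes lie left of 0.

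The 24 collagen genes that were not tested had at most 0.288 FPKM and 163 counts in any library. No gene of the transmembrane collagens (COL13A1, COL17A1, COL23A1 and COL25A1) was expressed at the filter. COL23A1, COL9A1, COL6A5, COL25A1 and COL28A1 were at 0 counts in all 6 libraries, where 3 counts correspond to 0.0412 to 0.0474 CPM of the whole library. Another 7 had under 10 counts in every library: COL21A1, COL19A1, COL13A1, COL2A1, COL22A1, COL20A1 and COL6A3. COL11A2 had 123, 49 and 46 counts in siEIF4G2 libraries and 48, 97 and 98 counts in siNC libraries, COL17A1 had 7, 49 and 37 in siEIF4G2 libraries and 71, 52 and 131 in siNC libraries, and COL24A1 reached 48 in siNC library 2 and at most 10 in any other. With no filter, edgeR fitted the 19 of them with any count, and none passed an adjusted p of 0.05, beside 14.4% of the 27064 genes in that fit. That share takes in well-expressed genes, so it is not a like comparison for genes below the filter. Of the 19, only COL8A2 had an unadjusted p under 0.05 (adjusted p = 0.114 by edgeR). It had 8, 8 and 7 counts in siEIF4G2 libraries, against 19, 15 and 30 counts in siNC libraries.

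Genes that act on collagen chains or regulate their genes were counted in 7 lists, and each count stands beside the 33.4% of all genes that passed. Chains are first hydroxylated, glycosylated and folded in the endoplasmic reticulum. Of 19 such genes 17 were tested, and 2 rose, 4 fell and 11 did not pass (median log2 fold change -0.15). COLGALT1, which adds galactose to hydroxylysine, had the smallest p, at 384.7 ± 14.3 CPM in siEIF4G2 cells and 287.3 ± 6.89 CPM in siNC cells (1.34-fold higher, adjusted p = 0.00139 by edgeR). FKBP14, a prolyl isomerase, was 1.35-fold higher (0.0172), while P4HA2, a catalytic subunit of prolyl 4-hydroxylase, was 1.29-fold lower (0.00923) and PLOD1, a lysyl hydroxylase, 1.13-fold lower (0.0172). FKBP14 did not pass without siNC library 1 (0.0519) or 2 (0.0561), nor did PLOD1 (0.0597 and 0.0603). The other genes that fell, P3H1 and P3H4 of the prolyl 3-hydroxylase family, had adjusted p of 0.0335 and 0.045, and each failed in 5 of the 6 fits that left out a library, at up to 0.0978 and 0.127. Without siNC library 1 or without siNC library 2, the list had 1 gene higher and 1 lower. P4HA2 overlaps SLC22A4, which lies on the other strand with 9.49% of the CPM of P4HA2. SLC22A4 fell by 1.14 on the log2 scale (adjusted p = 0.00159 by edgeR).

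Procollagen trimers leave the endoplasmic reticulum in COPII carriers, and all 10 genes of that list were tested: 1 rose, 4 fell and 5 did not pass (median log2 fold change -0.13). SEC24D, a cargo-binding COPII subunit, averaged 63.1 ± 1.95 CPM in siEIF4G2 cells and 91.5 ± 2.19 CPM in siNC cells (SD, n = 3 each), 1.45-fold lower (adjusted p = 0.0008 by edgeR). MIA2, a partner of the collagen export receptor, fell 1.47-fold (0.00199), TFG, which organises exit sites, fell 1.37-fold (0.00404), and SEC31A, of the outer coat, fell 1.29-fold (0.0035). All 4 of these kept their calls under every alternative tried. KLHL12, an adaptor of the ubiquitin ligase that enlarges COPII coats, was the one that rose, 1.24-fold (0.00824).

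Outside the cell, propeptides are removed and chains cross-linked. Of 14 such genes 7 were tested, and 5 fell, none rose and 2 did not pass (median log2 fold change -0.19). LOXL2, a lysyl oxidase that cross-links collagen IV, had 500.6, 494.1 and 461.4 CPM in siEIF4G2 libraries, against 867.8, 812.0 and 817.3 CPM in siNC libraries. No siEIF4G2 library came near the siNC range, and LOXL2 fell by 0.78 on the log2 scale (adjusted p = 0.000389 by edgeR). BMP1, the procollagen C-proteinase, fell 1.45-fold (0.0022) and PCOLCE, its enhancer, 1.60-fold at a mean of 3.55 CPM in siEIF4G2 cells and 5.67 CPM in siNC cells (0.0205). PXDN, which forms sulfilimine cross-links in collagen IV, fell 1.14-fold (0.0166). PCOLCE did not pass in 5 of the 6 fits that left out a library (0.0527 to 0.0642 in those), and PXDN did not without siEIF4G2 library 1 (0.0533) or siNC library 1 (0.0546). TLL1, a proteinase related to BMP1, had an adjusted p of 0.0282 and failed in all 6 of those fits, at 0.0533 to 0.0892. Without siNC library 1 the list had 2 genes lower, and without any other library 3.

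**Figure D5:**
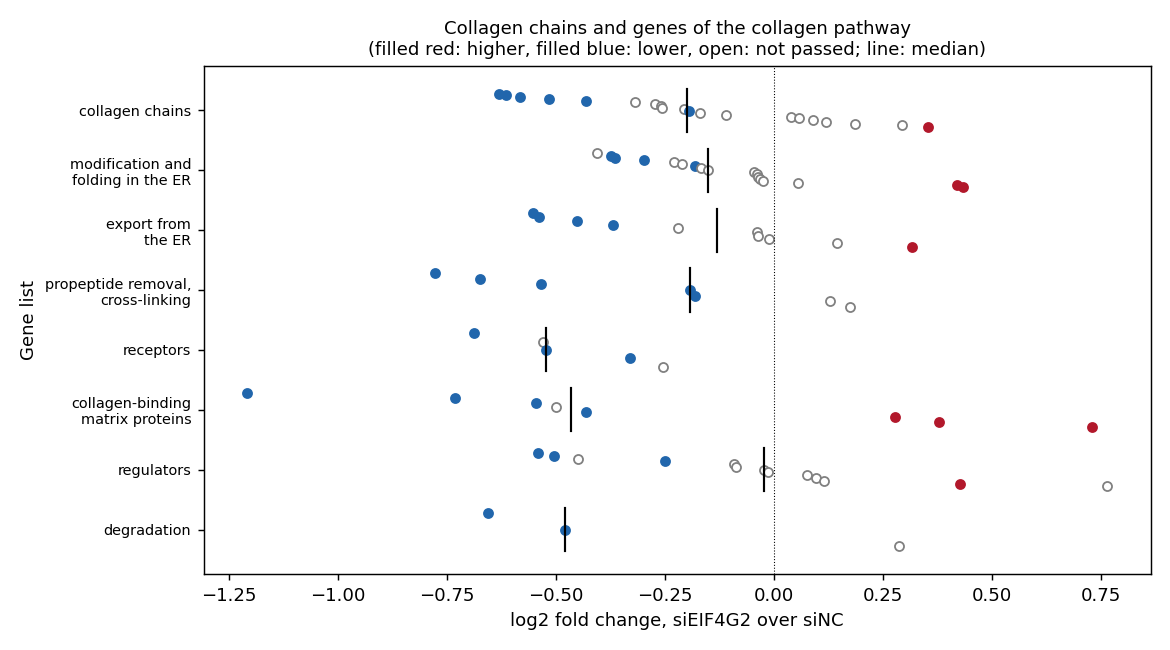
log2 fold change of siEIF4G2 over siNC for the tested collagen genes (top row) and the tested genes of the 7 pathway lists, filled where the test passed, with a line at the median of each list. The receptor list has no gene right of 0, and the list of collagen-binding matrix proteins has filled points on both sides.

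Of 11 collagen receptor genes 5 were tested, and 3 fell and 2 did not pass (median log2 fold change -0.52). DDR1, a receptor tyrosine kinase activated by collagen, averaged 87.3 ± 1.07 CPM in siEIF4G2 cells and 125.5 ± 7.79 CPM in siNC cells, 1.44-fold lower (adjusted p = 0.00149 by edgeR). ITGA2, the alpha subunit of a collagen-binding integrin, fell 1.61-fold (0.00587), and MRC2, an endocytic receptor for collagen fragments, fell 1.26-fold (0.00214). ITGA1, of the integrin that binds collagen IV, averaged 197.2 ± 18.4 CPM in siEIF4G2 cells and 235.3 ± 13.4 CPM in siNC cells and did not pass (0.0552), but passed without siEIF4G2 library 3 (0.0315). By DESeq2 all 5 fell. ITGA1 contains PELO in its interval.

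The matrix proteins that bind collagen moved in both directions: of 13 genes 8 were tested, 3 rose, 4 fell and 1 did not pass (median log2 fold change -0.47). TNXB, tenascin X, averaged 5.19 ± 0.392 CPM in siEIF4G2 cells and 12.0 ± 0.731 CPM in siNC cells, 2.31-fold lower (adjusted p = 0.0008 by edgeR). However, TNXB reached 0.5 FPKM only in the siNC libraries, so the filter kept it through the group where it was high. It averaged 0.272 FPKM in siEIF4G2 cells and 0.619 FPKM in siNC cells, and a filter on the mean left it out. Its partial copy TNXA can also share reads with it, which was not examined here. TGFBI, a secreted linker protein, fell 1.66-fold (0.00149), HSPG2, the basement membrane proteoglycan perlecan, fell 1.35-fold (0.00775), and MATN2, a matrilin, fell 1.46-fold (0.0106), the last overlapping the far more abundant RPL30. The genes that rose were THBS1 and the small proteoglycans DCN and LUM, which limit fibril growth and also stand in the fibroblast list above. DCN had 62.5, 79.1 and 48.2 CPM in siEIF4G2 libraries, against 36.6, 33.8 and 44.0 CPM in siNC libraries (1.66-fold higher, adjusted p = 0.0324). LUM had 132.6, 141.8 and 146.8 CPM in siEIF4G2 libraries, against 119.0, 114.4 and 90.7 CPM in siNC libraries (log2 fold change 0.38, adjusted p = 0.0417). In both genes the groups were separate, and COL3A1 was higher in the same libraries. COL1A1 and COL5A1 were lower in them. Of the 4 tested genes of the fibroblast list, 2 rose (DCN and LUM), 1 fell and 1 did not pass. The gene that fell was PDGFRB, 2.29-fold (adjusted p = 0.00302 by edgeR). DCN did not pass without siEIF4G2 library 1 (0.0755) or 2 (0.0612) or siNC library 1 (0.0943) or 2 (0.0969), and LUM did not without siEIF4G2 library 1 (0.0657), 2 (0.0944) or 3 (0.112) or siNC library 2 (0.07). THBS1 (log2 fold change 0.28, adjusted p = 0.0308) did not pass in 5 of the 6 fits that left out a library, at up to 0.0914. With no filter, and without siEIF4G2 library 2 or siNC library 2, no gene of the list of collagen-binding matrix proteins passed as higher. The part of fibroblast-type cells in that was not tested.

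Of 15 regulators of collagen genes 13 were tested, and 1 rose, 3 fell and 9 did not pass (median log2 fold change -0.02). SKI, a repressor of SMAD signalling, rose 1.34-fold (adjusted p = 0.00363 by edgeR). LARP6, which binds a stem-loop in the messenger RNAs of collagens I and III, fell 1.45-fold (0.0128), TGFB1, the cytokine that induces fibrillar collagens, fell 1.42-fold (0.0174), and TGFBR2, a subunit of its receptor, fell 1.19-fold (0.019). TGFB1 did not pass without siNC library 1 (0.055) or 2 (0.0555), nor TGFBR2 without siNC library 1 (0.0645) or 3 (0.0628), so that 1 regulator was lower without siNC library 1. TGFB1 overlaps HNRNPUL1 and CCDC97, both on the other strand, and LARP6 overlaps LRRC49. HNRNPUL1 had 436% of the CPM of TGFB1 and rose (log2 fold change 0.22, adjusted p = 0.00981 by edgeR). CCDC97 had 50.6% and fell (log2 fold change -0.26, adjusted p = 0.0188 by edgeR). Whether their reads entered the TGFB1 value was not tested.

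Of 9 genes for enzymes that degrade collagen 3 were tested, and 2 fell and 1 did not pass (median log2 fold change -0.48). CTSL, cathepsin L, averaged 372.7 ± 12 CPM in siEIF4G2 cells and 519.5 ± 13.7 CPM in siNC cells (SD, n = 3 each), 1.39-fold lower (adjusted p = 0.000844 by edgeR). MMP13, a collagenase, fell 1.57-fold at a mean of 6.16 CPM in siEIF4G2 cells and 9.71 CPM in siNC cells (0.0213), and did not pass without siNC library 3 (0.0643). CTSB, cathepsin B, averaged 272.9 ± 87.8 CPM in siEIF4G2 cells and 223.7 ± 69.8 CPM in siNC cells, with wide spread in both groups (adjusted p = 0.536). LOXL2 overlaps ENTPD4 and SEC31A overlaps THAP9-AS1 in the annotation.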

How the data were processed

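RNA from 3 siEIF4G2 and 3 siNC libraries was measured. The authors deposited 1 gene table with counts and FPKM for 60612 rows. HISAT2 2.0 and StringTie 1.3.0 are named in the submitters' processing notes, with no role, and neither the build nor strand use is stated there. The deposited counts are whole numbers and were treated as rounded estimated counts. The deposited FPKM values, normalized by the authors to length and depth, list 0.0001 where the count is 0, and were used for the filter and for levels between genes. Gene intervals overlapped those of GENCODE release 29 (GRCh38) for 99.9% of 58394 shared identifiers and for all 44 collagen genes.

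The test covered the 13748 genes that reached 0.5 FPKM in 3 or more libraries. Counts were scaled by TMM, and CPM, computed directly from the counts, takes the scaled total of the tested genes as library size. edgeR 4.0.16 (glmQLFit and glmQLFTest, R 4.3.3, siEIF4G2 over siNC, no covariates) with Benjamini-Hochberg adjustment over all genes gave fold changes, and a call is an adjusted p of 0.05. The procedure was tested on simulated data. Ratios were compared by exact permutation with scipy 1.17.1. Alternatives were DESeq2 1.42.0, limma 3.58.1 on log2(FPKM + a pseudocount of 1 or 0.1), DESeq2-type scaling, no filter, a filter on the mean, a replicate block and leaving out each library.

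Apart from COL10A1, COL11A1, COL14A1 and COL26A1, which were not tested, every collagen gene is named above. Other genes named are EIF4G2 and up to 4 genes with the smallest p of each pathway list. DCN, LUM, THBS1, KLHL12, P3H1, P3H4, TLL1, PDGFRB, CDH5, CD68 and marker genes are named beyond that, after their values were seen, and 1 leukocyte marker is not reported here. The collagen genes and the lists were chosen with earlier results of these data known. Depth was 63351653 to 72863628 counts, and counting floors cover counting error only.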

Additional observations from a re-analysis of the deposited data

How the results depend on the processing

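The number of collagen genes that passed was 7, and it was 7 by limma with a pseudocount of 1, with DESeq2-type scaling and with a filter on the mean, 6 by limma with a pseudocount of 0.1, 9 by DESeq2 and 5 with no filter. The fits that left out a library gave 5 to 9, the 9 without siEIF4G2 library 2. Over all genes, 4597 passed, 5343 by DESeq2, 3909 with no filter and 3352 to 4134 without a library. COL3A1, COL18A1, COL16A1 and COL1A1 kept their calls in all 13 alternatives, and COL5A1, COL4A3 and COL6A1 each lost theirs in some. With no filter, COL5A1 (adjusted p = 0.0535 by edgeR) and COL6A1 (0.0536) did not pass, nor did DCN (0.0504), LUM (0.0641) or THBS1 (0.0556), and by limma with a pseudocount of 0.1 COL4A3 did not (0.0552). The direction turned only for genes that had not passed: COL4A1 (-0.037) and COL4A6 (-0.022) without siEIF4G2 library 1, and COL27A1 without siEIF4G2 library 1 (-0.026), siEIF4G2 library 3 (-0.030) or siNC library 2 (-0.017). Over all 6 fits that left out a library, their log2 fold changes ran from -0.037 to 0.190 for COL4A1, -0.022 to 0.082 for COL4A6 and -0.030 to 0.301 for COL27A1. The causes were not tested. Of 36 genes outside the collagens that were followed, EIF4G2 included, 22 kept their side of the threshold in every alternative that fitted them. For TNXB that was 12 of the 13 alternatives, as the filter on the mean left it out.

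A replicate block left 6 collagen genes and 3736 of all genes, with COL4A3 at adjusted p = 0.0525, PXDN at 0.0542 and ITGA1 passing at 0.023, while DCN (0.0958), LUM (0.087) and THBS1 (0.0615) did not pass, nor did P3H1 (0.0632) or P3H4 (0.0882). Deviations of libraries with the same number correlated at -0.021, 0.0186 and 0.0343 over genes, and the labels do not say that the numbers pair libraries. The 24 collagen genes outside the test were left out by the FPKM filter, and 12 of them had under 10 counts in every library.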
